A study of Rattus norvegicus with 2 samples.

Results

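Transcript levels of 9 genes of chromosome segregation were examined in H9c2, a rat line of heart myoblasts that was established from embryonic tissue. The genes were Kif22, Kif20a, Kif11, Kif4a, Tpx2, Fam83d, Aurkb, Pttg1 and Foxm1, chosen by symbol through their Entrez gene identifiers, and all 9 were found among the 7803 usable identifiers of 8039 entries per library. RNA was sequenced after 12 h without serum, at 2.5 mM phosphate (high phosphate) or 0.9 mM phosphate (control phosphate). Cells of both groups had been grown in serum before this step, and both were without serum during it. Each phosphate level had 1 library, so no test between the levels was possible, no value has an error, and differences between cultures of the same treatment are unknown.

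Kinesins are motor proteins that move along microtubules or alter their ends, and several of them act mainly while chromosomes are separated. The bipolar spindle is built by motors, microtubule nucleating factors and mitotic kinases, and chromosomes part once the protease separase is freed from its inhibitor securin. Genes for these proteins are transcribed mostly in G2 and mitosis, under activators that include the MuvB complex with B-Myb and the forkhead factor FOXM1, so their transcripts mark dividing cells.

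The files give FPKM, mapped fragments relative to transcript length and to the size of the library. The number of reads behind a value is unknown, so low values such as those of Pttg1 have an unknown counting error. Differences are given as log2((high phosphate FPKM + 1)/(control phosphate FPKM + 1)), called the log2 ratio. On this scale the differences of weakly expressed genes come out too small. The 4366 genes whose mean over both libraries reached 1 FPKM are called measured, and all 9 genes were among them. Pttg1, at a mean of 1.17 FPKM, was above this limit through the high phosphate library alone.

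The 9 genes and the gene lists below were chosen with earlier results of these data known. Setting them beside all measured genes is therefore a description and not a test. Transcripts of 7 of the 9 genes were higher in the high phosphate library, where 50.5% of all measured genes were higher. These were the 4 kinesins, both spindle factors and securin. Aurkb and Foxm1 were lower, where 49.4% of measured genes were lower. The median log2 ratio of the 9 genes was 0.75, beside 0.00 over all measured genes. At least 1.5-fold higher were 5 of the 9, against 7.21% of measured genes, and none was at least 1.5-fold lower, against 3.37%. Securin alone passed 2-fold, a difference that 1.76% of measured genes reached upward and 0.87% downward. It met the 1 FPKM limit only through the high phosphate library, so its part in these counts follows partly from that limit. From a mean of 5 FPKM, 6 of 7 of the genes were higher, against 50.6% of all genes at that level. At least 1.5-fold higher were 4 of the 7, against 5.84%, and none passed 2-fold. Whether more cells were in mitosis or each cell held more of these transcripts cannot be told apart in bulk RNA.

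Among the kinesins, Kif22, a chromosome-binding motor that helps push chromosome arms towards the spindle middle, was the most abundant of the 9 genes. It had 95.5 FPKM in high phosphate and 63.9 FPKM in control phosphate. Its log2 ratio of 0.57 lay just under 1.5-fold. Kif20a, a motor that carries Aurora B to the central spindle and acts in cytokinesis, had 40.9 FPKM in high phosphate and 22.7 FPKM in control phosphate (log2 ratio 0.82). Kif11, the motor that slides antiparallel microtubules apart to make the spindle bipolar, had 23.5 FPKM in high phosphate and 16.9 FPKM in control phosphate. Its log2 ratio of 0.45 was the smallest of the 7 higher genes. Kif4a, a chromosome-binding motor that limits microtubule length in the anaphase midzone, had 12.7 FPKM in high phosphate and 6.44 FPKM in control phosphate. That is 1.97 times as much, with a log2 ratio of 0.88. The order of the 4 kinesins was the same in both libraries, from Kif22 down through Kif20a and Kif11 to Kif4a. The lowest of them, Kif4a, lay nearest to 2-fold, and without replicates it is unknown which of these 4 differences exceed the spread between cultures.

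Of the spindle assembly factors, Tpx2, which activates Aurora A and starts microtubule growth near chromosomes, had 10.4 FPKM in high phosphate and 4.93 FPKM in control phosphate. Its listed FPKM were 2.1 times apart, and its log2 ratio of 0.94 fell short of 2-fold because of the added 1. Fam83d, which anchors casein kinase 1 alpha to the spindle, had 20.3 FPKM in high phosphate and 11.7 FPKM in control phosphate (log2 ratio 0.75). These 2 genes and the kinesins Kif4a and Kif20a formed a narrow group, with listed FPKM from 1.74 to 2.1 times those in control phosphate. Kif22 at 1.5 times and Kif11 at 1.39 times stood lower.

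Pttg1 encodes securin, which holds separase inactive until anaphase. It was the least abundant of the 9 genes in both libraries, with 2.01 FPKM in high phosphate and 0.33 FPKM in control phosphate. The log2 ratio was 1.18, the highest of the 9, and 2.61 without the added 1. Separase itself, Espl1, had 6.5 FPKM in high phosphate and 4.89 FPKM in control phosphate. Securin was thus listed at 0.309 times the level of separase in high phosphate and at 0.0675 times in control phosphate. A ratio of 2 genes in the same library does not depend on how the libraries were scaled to each other. The ratio in control phosphate still rests on the 0.33 FPKM of Pttg1, whose counting error is unknown.

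**Figure D1:**
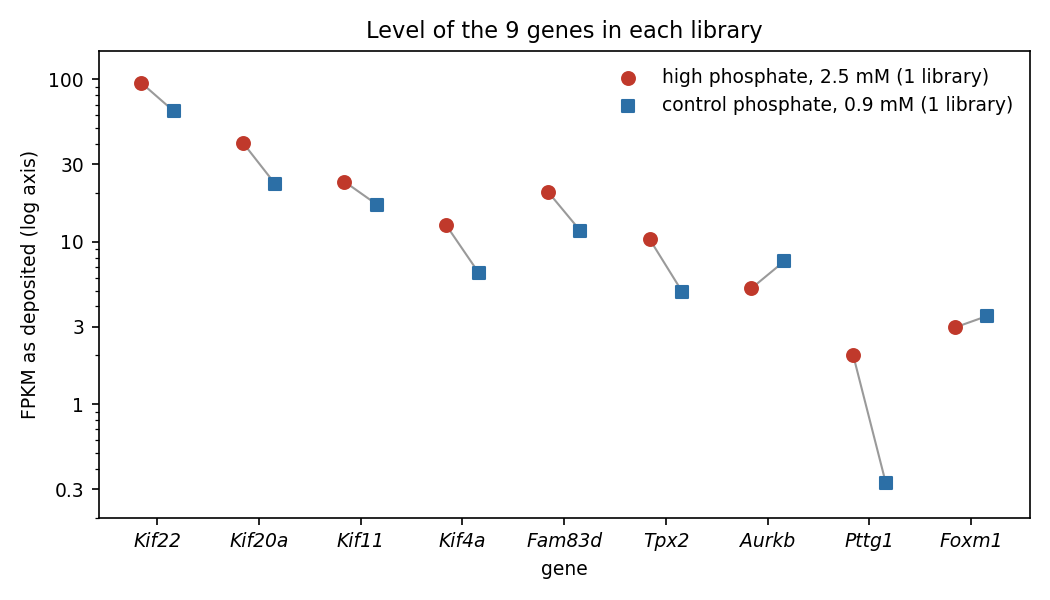
FPKM as deposited, on a log axis, of the 9 genes in the high phosphate library (circles, left of each pair) and the control phosphate library (squares, right), 1 library each, so there are no error bars. The circle stands above the square for 7 genes and below it for Aurkb and Foxm1, and Pttg1 has the widest gap, with 2.01 FPKM in high phosphate and 0.33 FPKM in control phosphate.

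Aurkb encodes Aurora B, the kinase of the chromosomal passenger complex, which corrects faulty chromosome attachments and drives cytokinesis. It had 5.17 FPKM in high phosphate and 7.57 FPKM in control phosphate, a log2 ratio of -0.47, and 233 of the 4366 measured genes had a lower one. The other subunits of the complex were looked up after these values were seen. Birc5, which encodes survivin, had 50.1 FPKM in high phosphate and 35.4 FPKM in control phosphate. Cdca8, which encodes borealin, had 21.1 FPKM in high phosphate and 16.4 FPKM in control phosphate. The scaffold subunit Incenp had 8.43 FPKM in high phosphate and 10.4 FPKM in control phosphate. Within this complex, then, survivin and borealin were higher and the kinase and its scaffold lower. Birc5 stood at 9.69 times the level of Aurkb in high phosphate and at 4.68 times in control phosphate. The same ratio for Tpx2 over Aurkb was 2.01 in high phosphate and 0.651 in control phosphate, so the order of these 2 genes differed between the libraries.

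Foxm1, the forkhead factor that activates G2 and mitosis genes, had 2.97 FPKM in high phosphate and 3.5 FPKM in control phosphate. Its log2 ratio of -0.18 was modest, with 1050 measured genes below it. Both values were low. A list of 25 genes described as FOXM1 targets, Tpx2, Kif20a, Fam83d and Aurkb among them, had 15 measured members. Of these, 13 were higher, where 50.5% of all measured genes were higher, and the median log2 ratio was 0.58. Without those 4, 10 of 11 were higher with a median of 0.49. The lowest measured member was Aurkb, the highest Tpx2, and the most abundant Cdc20. Aurka, the gene of Aurora A, fell under the limit of 1 FPKM. It had 0.12 FPKM in high phosphate and 0.81 FPKM in control phosphate. Mitosis genes under the limit went both ways. Nusap1 had 0.74 FPKM in high phosphate and 0.38 FPKM in control phosphate. Cenpk had 0.88 FPKM in high phosphate and 0.39 FPKM in control phosphate.

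**Figure D2:**
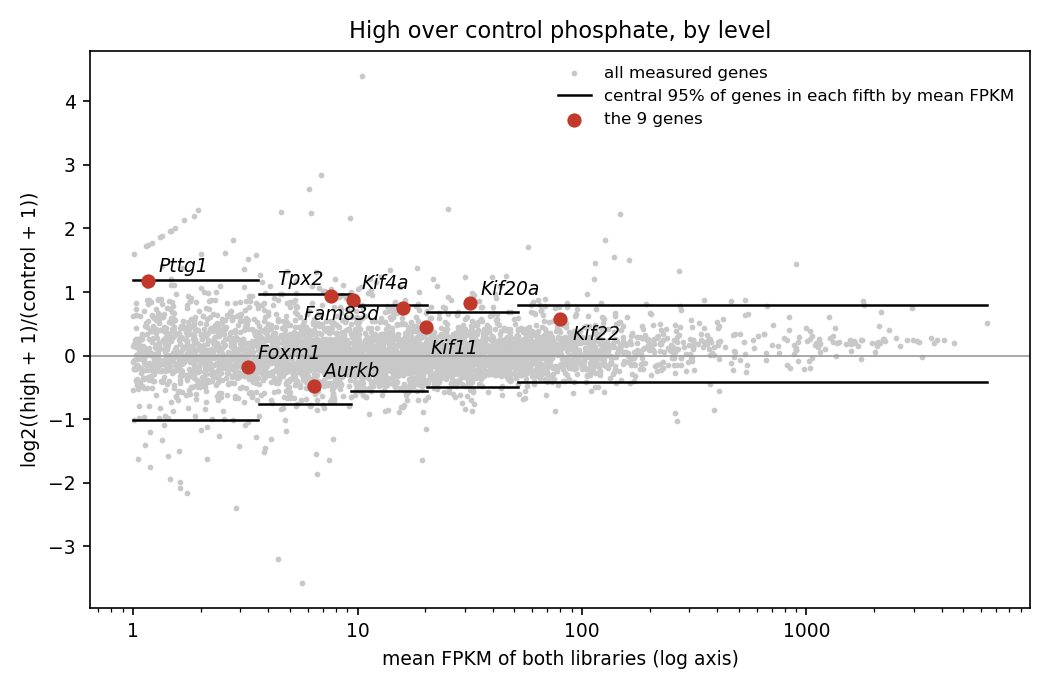
Log2 ratio of high over control phosphate (vertical) against the mean FPKM of both libraries (horizontal, log axis) for the 4366 measured genes in grey and the 9 genes in red. Black lines bound the central 95% of genes in each of 5 equal groups by mean FPKM, and Kif4a and Kif20a lie above the upper line of their group.

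Differences between 2 libraries spread more widely at low FPKM, so each gene was set beside measured genes of similar level, in 5 groups of nearly equal size by mean FPKM. The central 95% of log2 ratios reached up to 1.18 in the lowest group, which holds Pttg1, and to 0.97 in the second, which holds Tpx2. The upper bounds were 0.79 in the third group, 0.69 in the next, which holds Kif20a, and 0.79 in the highest. Kif20a, at 0.82, lay above its bound. Kif4a, at 0.88 in the third group, also lay above its bound, but its mean of 9.55 FPKM was close to the edge of the second group, whose bound it did not reach. Tpx2, Fam83d and Pttg1 lay just inside, Kif22 and Kif11 further inside, and Aurkb and Foxm1 were inside the lower bounds of -0.77 and -1.02. Among all measured genes, 51 had a higher log2 ratio than Pttg1, 93 than Tpx2, 110 than Kif4a, 147 than Kif20a and 186 than Fam83d. For Kif22 and Kif11 the numbers were 326 and 479.

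Promoter windows were read, since shared upstream elements are a known property of G2 and mitosis genes. Windows of 300 bases, 250 before and 50 after the annotated start, were taken from RefSeq on build GRCr8 and matched 6 of the 9 genes: Kif22, Kif20a, Kif11, Kif4a, Fam83d and Pttg1. All 6 were higher in high phosphate. Tpx2 and the lower genes Aurkb and Foxm1 had no window, so higher and lower genes could not be compared. Known elements of such promoters are the cell cycle genes homology region (CHR, letters TTTGAA), bound by MuvB complexes, and the CCAAT box (letters CCAAT), bound by NF-Y. Both were searched on both strands. The 4 windows that hold both are shown 5′ to 3′ on the strand of the gene, with each match to CCAAT (read as ATTGG on the other strand) or TTTGAA (read as TTCAAA) in capitals.
Kif22, chr1:191080829-191081128, reverse strand: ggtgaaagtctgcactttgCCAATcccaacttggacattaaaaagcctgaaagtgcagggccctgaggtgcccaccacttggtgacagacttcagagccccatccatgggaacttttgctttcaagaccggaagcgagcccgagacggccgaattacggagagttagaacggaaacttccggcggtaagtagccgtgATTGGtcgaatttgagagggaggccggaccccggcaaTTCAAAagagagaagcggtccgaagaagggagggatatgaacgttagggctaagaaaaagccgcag
Kif4a, chrX:69761633-69761932, forward strand: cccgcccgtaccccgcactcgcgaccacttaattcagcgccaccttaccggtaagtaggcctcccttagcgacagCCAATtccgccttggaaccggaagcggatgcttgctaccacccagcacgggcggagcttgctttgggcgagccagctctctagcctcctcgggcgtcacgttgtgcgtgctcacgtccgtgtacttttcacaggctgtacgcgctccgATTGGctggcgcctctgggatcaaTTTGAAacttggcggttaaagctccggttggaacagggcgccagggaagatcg
Fam83d, chr3:167841542-167841841, forward strand: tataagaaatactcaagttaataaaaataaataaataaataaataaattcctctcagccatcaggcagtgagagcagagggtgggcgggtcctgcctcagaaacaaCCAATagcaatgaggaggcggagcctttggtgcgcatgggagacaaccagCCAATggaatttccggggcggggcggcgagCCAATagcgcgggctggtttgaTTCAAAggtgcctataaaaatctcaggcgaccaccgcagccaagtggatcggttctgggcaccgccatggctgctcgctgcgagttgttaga
Pttg1, chr10:28406277-28406576, reverse strand: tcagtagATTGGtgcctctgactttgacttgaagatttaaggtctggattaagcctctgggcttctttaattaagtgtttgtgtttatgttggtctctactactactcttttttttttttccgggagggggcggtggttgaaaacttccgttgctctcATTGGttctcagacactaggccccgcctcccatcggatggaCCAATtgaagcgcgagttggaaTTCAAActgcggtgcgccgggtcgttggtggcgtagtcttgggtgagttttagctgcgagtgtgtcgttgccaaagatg

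The CCAAT letters occurred in 6 of 6 windows, against 37.5% of all 33469 promoter windows and 39.4% of the 3770 windows of measured genes. The CHR letters occurred in 4 of 6, against 18.3% of all windows and 11.8% of those of measured genes. Both occurred together in the same 4 windows, against 7.41% and 4.88%. In these 4 the CHR letters began 3 bases before the annotated start in Kif4a, 16 in Kif22, 29 in Pttg1 and 42 in Fam83d. The nearest CCAAT letters stood upstream of them in each, with 17 bases between in Fam83d and Pttg1, 19 in Kif4a and 32 in Kif22, and no CHR match overlapped a CCAAT match. Kif20a had 3 CCAAT matches and Kif11 had 1, without the CHR letters in these windows.

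Of the other measured genes of the mitosis lists described below, 22 of 69 windows held both sets of letters (31.9%), and of measured S phase genes 1 of 22. The combination thus also occurred in mitosis genes beyond these 6. The CHR variant TTCGAA, the E2F letters TTTCCCGC and TTTGGCGC and the forkhead letters GTAAACA matched none of the 6 windows. They occurred in 1.69%, 0.974%, 0.493% and 3.78% of all windows. The hypoxia response core ACGTG matched Kif11 and Kif4a, 2 of 6, against 19.3% of all windows and 28.2% of those of measured genes. A match of letters is a description of the window, not evidence of binding.

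**Figure D3:**
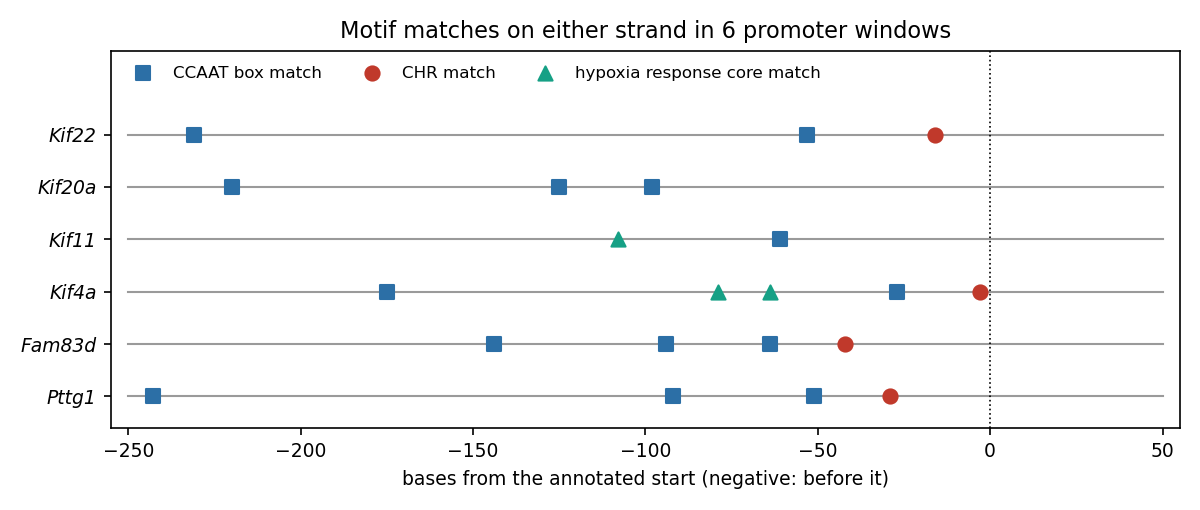
Positions of matches to the CCAAT box, the CHR and the hypoxia response core, on either strand, in the promoter windows of 6 genes, in bases from the annotated start (horizontal, negative before it). In Kif22, Kif4a, Fam83d and Pttg1 a CHR match lies within 42 bases before the start, with a CCAAT match upstream of it.

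The wider kinesin family was compared to show where the 4 kinesins stood. Of 15 mitotic kinesins on the list, 7 were listed and 6 measured, all 6 higher in high phosphate, also under each of 4 rescalings of the libraries. Their median log2 ratio was 0.51. Higher with the deposited values were 50.5% of all measured genes, and 32.5% once both libraries had equal sums. The 4 kinesins described above are part of these 6. The list without those 4 had 2 measured genes, both higher, with a median of 0.32 and neither at least 1.5-fold higher. Besides the 4 described, Kifc1, a minus-end motor that focuses spindle poles, had 48.4 FPKM in high phosphate and 37.9 FPKM in control phosphate. Kif18b, a microtubule depolymerase, had 14.6 FPKM in high phosphate and 11.7 FPKM in control phosphate, the lowest log2 ratio of the list (0.30). Kif18a was listed at 0 in both libraries, which can also be a failed estimate. Of other kinesins and kinesin light chains, 6 were measured, with 3 higher, 2 lower and a median of 0.05 that turned to -0.04 after rescaling to the same sum. Their most abundant member, the cargo motor Kif5b, had 21.8 FPKM in high phosphate and 24.0 FPKM in control phosphate. Klc4 was highest at 0.55 and Kif3b lowest at -0.31. Kif20a stood at 1.88 times the level of Kif5b in high phosphate and at 0.943 times in control phosphate.

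**Figure D4:**
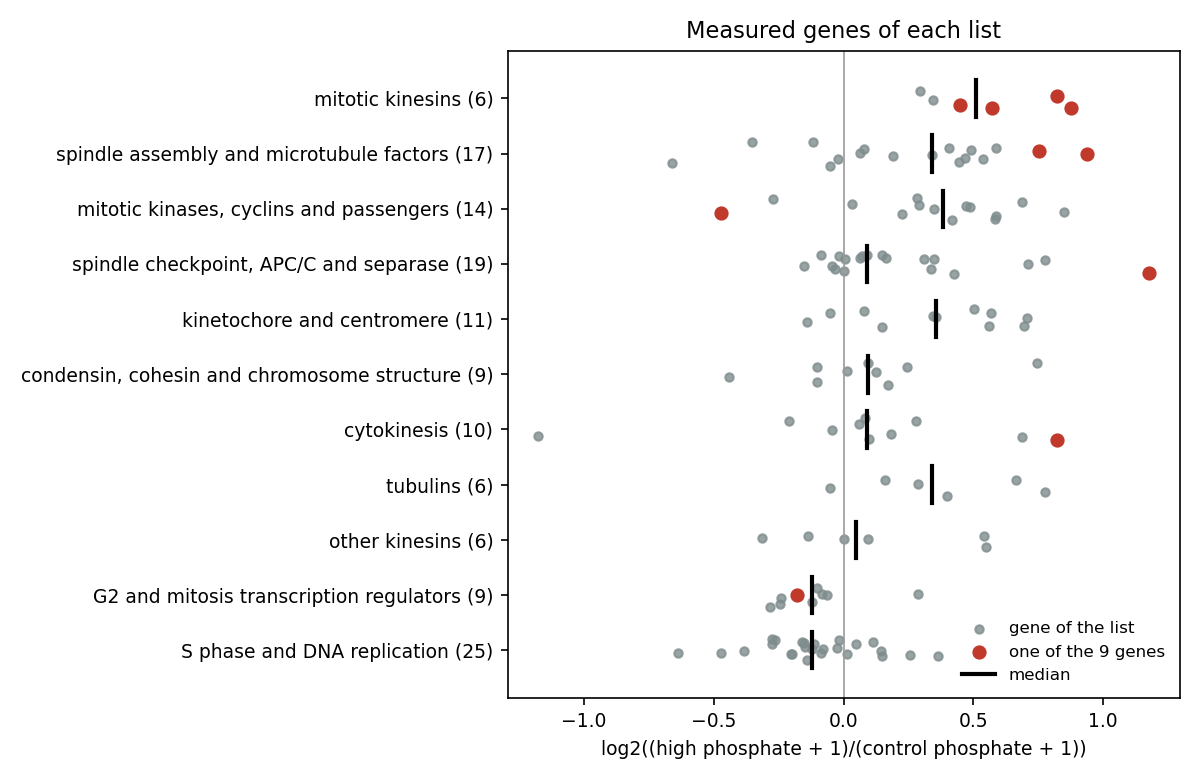
Log2 ratio of high over control phosphate (horizontal) for each measured gene of 11 lists, with the number of genes in brackets, the median as a bar and the 9 genes in red. All 6 mitotic kinesins lie right of 0, while the medians of transcription regulators and S phase genes lie at -0.12.

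Other genes of mitosis were described from 7 lists: mitotic kinesins, spindle assembly, mitotic kinases and cyclins, the spindle checkpoint with the anaphase-promoting complex (APC/C), kinetochores, condensin with cohesin, and cytokinesis. Without the 9 genes, 77 members of these lists were measured. Of these, 58 were higher and 19 lower, with a median log2 ratio of 0.18, where 50.5% of all measured genes were higher. When the libraries were brought to equal summed FPKM, which moved the median of all genes by -0.15, 40 of the 77 were higher and 37 lower. Under that scaling 32.5% of all measured genes were higher. At least 1.5-fold higher as deposited were 10 of the 77, against 7.21% of measured genes, and 2 were at least 1.5-fold lower, against 3.37%. The 9 genes kept 7 higher and 2 lower under this and the other 3 rescalings.

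By role, 12 of 14 measured mitotic kinases, cyclins and passengers were higher (median log2 ratio 0.38), and 12 of 13 without Aurkb (median 0.42). After rescaling to the same sum 11 of the 14 were higher (median 0.23). Of all measured genes 50.5% were higher as deposited and 32.5% after that rescaling. Cdk1, the kinase that drives entry into mitosis, had 13.2 FPKM in high phosphate and 6.91 FPKM in control phosphate, the highest of this list at 0.85. Its most abundant member, the Cdk1 partner Cks2, had 148 FPKM in high phosphate and 98.4 FPKM in control phosphate. Of 11 kinetochore and centromere genes 9 were higher (median 0.36). Cenpa, the centromeric histone H3 variant, was highest at 0.71, Cenpb lowest at -0.14 and Spc24, a subunit of the NDC80 complex, most abundant with 81.1 FPKM in high phosphate and 49.7 FPKM in control phosphate. Of 15 spindle assembly and microtubule factors other than Tpx2 and Fam83d 10 were higher (median 0.19), and with these 2 genes 12 of 17 (median 0.34). After rescaling to the same sum 10 of the 17 were higher (median 0.20). Tpx2 was highest, the plus-end binding protein Mapre1 lowest at -0.66, and the tubulin-binding protein Stmn1 most abundant with 166 FPKM in high phosphate and 118 FPKM in control phosphate.

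The 3 remaining lists had medians near 0 that changed sign on rescaling to the same sum. That rescaling changes the FPKM ratio of every gene by the same factor, before the 1 is added. It put the median log2 ratio of all measured genes at -0.15. Securin is counted in the first of these lists and Kif20a in the last. Of 19 checkpoint and APC/C genes 14 were higher with a median of 0.09, where 50.5% of all measured genes were higher. After rescaling 7 were higher with a median of -0.07, where 32.5% of all measured genes were higher. Securin was highest and Cdc23 lowest at -0.15, while the abundant APC/C subunit Anapc5 was at 0.16. Cdc20, the activator of the APC/C, had 86.7 FPKM in high phosphate and 50.1 FPKM in control phosphate. Of 9 condensin and cohesin genes 6 were higher (median 0.10), and 3 rescaled (median -0.06). Smc2 was highest at 0.74, Esco2 lowest at -0.44 and the cohesin subunit Rad21 most abundant at 0.24. Of 10 cytokinesis genes 7 were higher (median 0.09), and 4 rescaled (median -0.06). Kif20a was highest and the septin Septin2 lowest at -1.18. Rhoa, the small GTPase of the contractile ring and the most abundant of them, was at -0.04.

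The measured genes that regulate transcription in G2 and mitosis were mostly lower. Of 23 on the list, 10 were listed and 9 measured, and the gene of B-Myb was not among them. Of the 9 measured members, Foxm1 included, 8 were lower and 1 higher, under the deposited values and each of 4 rescalings. Of all measured genes 49.4% were lower as deposited. The median log2 ratio of the 9 regulators was -0.12 as deposited. E2f8, with 0.49 FPKM in high phosphate and 1.48 FPKM in control phosphate, fell under the limit of 1 FPKM. The NF-Y subunit Nfyb was the 1 higher, at 0.29. Tfdp1, the partner of E2F factors, was lowest at -0.28, and the most abundant, the histone-binding protein Rbbp4, was at -0.08. Differences of this size lie well inside the central 95% of all measured genes at these levels. Of 25 measured S phase and replication genes 18 were lower (median -0.12), with Mcm4 at -0.64, Rpa3 at 0.37 and the abundant Pcna at -0.14. After rescaling to the same sum 23 of 25 were lower and 2 higher, where 32.5% of all measured genes were higher.

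Some values can be shared with other loci, and the sources used here do not say how reads were assigned to strands and to repeated sequences. In the RefSeq table Kif20a overlaps Cdc23, which had 2.79 FPKM in high phosphate and 3.21 FPKM in control phosphate. Kif4a overlaps Pdzd11, with 2.06 FPKM in high phosphate and 0.91 FPKM in control phosphate, which lay in the same direction as Kif4a. Kif11 overlaps Ide, with 0.42 FPKM in high phosphate and 0.67 FPKM in control phosphate. Foxm1 overlaps Tex52, which was not analysed here. Kif11 and Tpx2 each have a pseudogene in that table. The part of these loci in the values was not tested.

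Of the muscle and heart markers, 8 of 16 were listed and 3 measured, with a summed level over those 3 of 157 FPKM in high phosphate and 136 FPKM in control phosphate. Desmin (Des) made up most of it, Myod1 had 1.59 FPKM in high phosphate and 6.11 FPKM in control phosphate, Acta1 had 1.64 FPKM in high phosphate and 1.57 FPKM in control phosphate, and Tnnt1, Myh7 and Ryr2 were listed at 0 in both. The fibroblast marker Thy1 had 317 FPKM in high phosphate and 232 FPKM in control phosphate, Col1a1 and Dcn were also higher, and Pdgfra was at 0 in both. Of epithelial markers Krt8 was abundant, with 247 FPKM in high phosphate and 140 FPKM in control phosphate, while Epcam and Cdh1 stayed under 1 FPKM. The leukocyte marker Ptprc was at 0 in both libraries, Cd68 had 1.38 FPKM in high phosphate and 1.06 FPKM in control phosphate, and the endothelial markers Pecam1 and Kdr were under 1 FPKM. The part of these differences in those of the 9 genes was not tested.

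The direction of each of the 9 genes was the same under 7 other settings of pseudocount and scaling. Kif11 came nearest to 0 among the higher genes, at 0.29 after rescaling to the same sum, and Foxm1 among the lower, at -0.17 after rescaling to the same upper quartile. Rescaling to the same sum put Aurkb at -0.62, more than 1.5-fold lower. That rescaling left 57 genes of all measured genes at least 2-fold higher and 56 lower, against 77 and 38 as deposited.

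**Figure D5:**
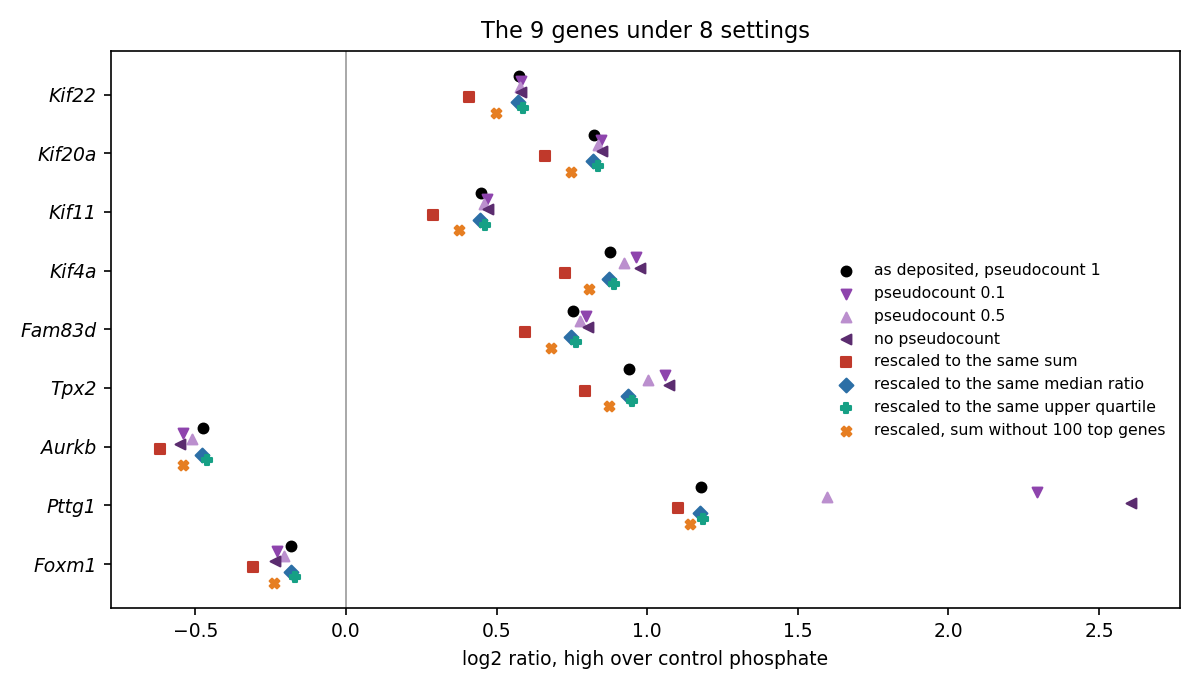
Log2 ratio of high over control phosphate (horizontal) for the 9 genes under the reported setting and 7 others, each with its own marker. No gene crosses 0, and Pttg1 spreads widest, between 1.10 and 2.61, since its control value of 0.33 FPKM lies below the added 1.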

How the data were processed

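RNA-seq was analysed for 2 libraries of H9c2 cells, 1 per phosphate level. The deposited values are FPKM made by the authors, per the file headers, with 2 decimals. Cuffdiff, Cufflinks 2.2.1, TopHat2 2.1.1, bcl2fastq and the build Rnor_6.0 are named, without roles, in the submitters' processing notes. The sources used here do not give the annotation, strand setting or scaling between libraries.

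Of 8039 entries, 236 (2.94%, with 8.56% of the FPKM in high phosphate and 8.20% in control phosphate) had identifiers damaged by number formatting and were left out. Of the 7803 others, 7746 matched a symbol in the NCBI table for GRCr8, used for names, overlaps and promoter windows. Read depth is unknown, so no counting interval is given.

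The log2 ratio used a pseudocount of 1, for genes whose mean reached 1 FPKM. Fold calls of 1.5 and 2 are rules of size on this scale, and there is no test or p-value. The 9 genes and the 17 gene lists were chosen with earlier results of these data known. Named list members are the highest and lowest log2 ratio and the most abundant. Exceptions are all listed mitotic kinesins, passenger complex subunits, Espl1, Cdc20, the marker genes, and the genes named as under 1 FPKM. Of the 10 alternative settings tried, 1 (no pseudocount) was added after seeing the values. The calculation was tested on simulated data. Python 3.11.15, numpy 2.4.6, pandas 2.3.3 and matplotlib 3.10.9 were used.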

Additional observations from a re-analysis of the deposited data

How the results depend on the processing

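The direction of each of the 9 genes held under the pseudocounts of 0.1 and 0.5, no pseudocount and 4 rescalings. Their median log2 ratio, 0.75 as reported, was 0.80 with a pseudocount of 0.1, 0.78 with 0.5, 0.80 with none, 0.60 at the same sum, 0.77 at the same upper quartile, 0.68 at the same sum without the 100 most abundant genes and 0.66 without Pttg1, the gene with the largest difference. At least 2-fold higher were 2 of the 9 with pseudocounts of 0.1, 0.5 or none, when Tpx2 joined Pttg1, and 0 among the 7 whose mean reached 5 FPKM. Over all genes the 2-fold counts were 151 higher and 62 lower with a pseudocount of 0.1, 155 and 62 with none (a setting added after the data were seen), and 41 and 8 from a mean of 5 FPKM, in place of 77 and 38. By construction, a smaller pseudocount widens differences of low genes and a higher minimum removes such genes. No paired analysis was possible because each phosphate level has 1 library, which also leaves no library to omit. Depth is unknown, so how far counting error reaches into low values such as those of Pttg1 and Foxm1 cannot be given.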

Other observations

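Tubulin genes, which encode the subunits of the microtubules that these motors work on, were looked at beside them. Of 6 measured, 5 were higher in high phosphate, or 4 once the libraries had equal sums. Of all measured genes 50.5% were higher as deposited and 32.5% at equal sums. The median log2 ratio of the tubulins was 0.34 as deposited. Tuba1a had 344 FPKM in high phosphate and 200.4 FPKM in control phosphate, the highest log2 ratio of the list at 0.78. The most abundant, Tubb5, had 949 FPKM in high phosphate and 720 FPKM in control phosphate. Tubg1, the gamma-tubulin of spindle poles, was lowest at -0.05. With 1 library per phosphate level these are values of 2 cultures and have no replicate check.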
